A study of Mus musculus with 2 samples.

Results

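Klk10, Klk8, Klk1 and Klk1b21 are 4 of the 26 tissue kallikrein genes with a row among the 27998 genes counted in the lining of the mouse aorta. They were chosen by name, with earlier results of these same data known, and each was followed through the endothelial subtypes, the other cell classes and both libraries. The old library came from 1 mouse of 18 months and the young library from 1 mouse of 8 weeks, both of strain C57BL6/J, with no other treatment or allele given in the labels. In both, the aorta was stripped of adventitia, and cells of the inner surface were freed with trypsin and a small blade. A droplet kit then marked every captured RNA molecule near its 3′ end, so that molecules are counted as unique molecular identifiers (UMIs). With 1 animal per age, no test between ages was possible, and every interval below is a 95% interval for counting error only.

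Tissue kallikreins are secreted serine proteases of the trypsin and chymotrypsin fold, encoded side by side in one gene cluster. Klk1, the true tissue kallikrein, cuts kininogen to release kinins, which act on endothelial receptors and lead to nitric oxide and prostacyclin release. The mouse carries many Klk1b genes that arose as copies of Klk1, and their own substrates are less well known. Klk8, or neuropsin, has been studied mostly in brain and skin. Klk10 has been described in endothelium as a gene that is higher under steady than under disturbed blood flow.

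The old library held 3408 barcodes with 19171045 UMIs and a median of 4737 UMIs per barcode, and the young library 1366 barcodes with 12576023 UMIs and a median of 7558.5. Endothelial-like (EC-like) cells, named by clusters from 10 fixed markers such as Pecam1 and Cdh5, were 2385 of 3330 old cells kept and 1081 of 1359 young cells kept. The summed level of the 10 markers was 8707 CPM (UMIs scaled to a class total of 1000000) in old and 8787 CPM in young EC-like cells. One of them, Kdr, was seen in 2.26% of old and 2.59% of young EC-like cells. The endothelium was of 2 kinds, told apart by 3 markers each, Coch, Sost and Adra2a in the one and Bcan, Isl1 and Frzb in the other. The Coch/Sost/Adra2a endothelium held 429 old cells, nearly all in cluster 2, and 451 young cells, mostly in cluster 3. The Bcan/Isl1/Frzb endothelium held 1956 old cells, nearly all in clusters 0 and 1, and 630 young cells, mostly in cluster 6. Bcan itself was seen in 39.4% of old and 13.8% of young cells of that kind, whereas Isl1 was seen in 55.8% and 58.9%. The kallikreins were left out of the genes used for clustering. Old EC-like cells also held more RNA of some other classes. They held 604 CPM of 5 erythroid markers and 102 CPM of 8 macrophage markers, against 25.4 CPM and 8.95 CPM in young. Not higher in old were the markers of fibroblasts (678 CPM in old, 708 CPM in young), smooth muscle (321 and 323 CPM) and Schwann cells (29.1 and 39.7 CPM). The part of such RNA in the kallikrein values was not tested. Each library lists 11 barcodes that the other lists too.

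The 4 genes lie on the plus strand of chromosome 7 (GRCm38, GENCODE vM21), in a cluster of 28 kallikrein genes and pseudogenes that spans 539201 bases. Klk10 lies at chr7:43781035-43785410 and Klk8 at chr7:43797577-43803826, so that 12166 bases part them. Klk1b21 lies at chr7:44102328-44106583 and Klk1, the last gene of the cluster, at chr7:44225360-44229618. Identity over alignment columns, with gaps counted as differences, was 87.2% between the coding sequences of Klk1 and Klk1b21. It was 92.6% for Klk1b21 and Klk1b24 and 58.1% for Klk10 and Klk8. The antisense transcript 2310002F09Rik overlaps Klk10 and the start of Klk8, and the antisense pseudogene Gm10109 overlaps Klk1. Neither has a row in the files, and whether the counting used strand is not stated. Both lie on the minus strand, and their annotated 3′ ends, at chr7:43695209 and chr7:44221017, are outside the 4 genes. Whether any of their reads were counted to the kallikreins could not be checked.

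Which kallikrein a UMI belongs to depends on the last bases of the transcript, and there Klk1 and its copies resemble each other. Of the 50-base words in the last 500 bases of its transcripts, Klk1b21 shared 35.7% with transcripts of other genes (25.9% with Klk1b24), Klk1b24 shared 31.5% and Klk1 shared 27.5% (21.1% with Klk1b5). Klk10 and Klk8 shared none. The counts of Klk1, Klk1b21 and Klk1b24 are therefore uncertain where the counting could split or drop reads. To show how close the copies are, the last 120 coding bases, all within exon 5, are given below from GENCODE vM21 on GRCm38, plus strand. Capitals mark bases that differ from Klk1b21, 8 in Klk1b24 and 23 in Klk1.
Klk1b21 (chr7:44106415-44106534): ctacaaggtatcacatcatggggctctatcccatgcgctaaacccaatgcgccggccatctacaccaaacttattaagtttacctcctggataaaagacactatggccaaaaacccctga
Klk1b24 (chr7:44192287-44192406): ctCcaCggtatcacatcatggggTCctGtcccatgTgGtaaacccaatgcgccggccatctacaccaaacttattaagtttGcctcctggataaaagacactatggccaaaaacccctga
Klk1 (chr7:44229450-44229569): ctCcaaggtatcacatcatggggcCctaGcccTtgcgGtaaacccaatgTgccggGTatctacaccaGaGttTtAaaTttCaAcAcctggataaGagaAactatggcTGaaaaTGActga

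The promoters of the 4 genes, mostly upstream of the start, are printed from the RefSeq table for GRCm38.p6, plus strand, 5′ to 3′, since Klk1 and Klk1b21 stood apart from Klk10 and Klk8 in the comparison of ages. Capitals mark the letters CCACCC on either strand (GGGTGG on the opposite strand), a core that Krüppel-like factors such as Klf2 and Klf4 bind. Klk10 holds 2 matches, Klk1 3, Klk1b21 2 and Klk8 0. Of 32851 promoters of the same length, 31.5% hold at least 1 match, and a match is a description of the letters only. Identity over alignment columns, gaps again counted as differences, was 59.7% for the promoters of Klk1 and Klk1b21 (347 columns). For those of Klk10 and Klk8 it was 44.9% (336 columns). Each window follows the annotated start of its gene, so windows can be offset and unmatched ends can lower these values.
Klk10 (chr7:43780804-43781103): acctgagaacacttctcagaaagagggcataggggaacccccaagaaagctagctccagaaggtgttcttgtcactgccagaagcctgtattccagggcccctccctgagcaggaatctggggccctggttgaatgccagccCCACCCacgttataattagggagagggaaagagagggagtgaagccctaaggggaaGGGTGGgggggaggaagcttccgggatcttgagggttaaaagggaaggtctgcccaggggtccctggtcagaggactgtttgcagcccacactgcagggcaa
Klk8 (chr7:43797327-43797626): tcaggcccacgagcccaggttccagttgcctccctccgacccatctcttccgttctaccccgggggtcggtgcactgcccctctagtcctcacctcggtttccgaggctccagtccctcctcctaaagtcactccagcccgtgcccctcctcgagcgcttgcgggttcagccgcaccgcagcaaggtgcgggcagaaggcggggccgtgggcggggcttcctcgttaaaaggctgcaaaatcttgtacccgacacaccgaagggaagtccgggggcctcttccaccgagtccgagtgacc
Klk1 (chr7:44225110-44225409): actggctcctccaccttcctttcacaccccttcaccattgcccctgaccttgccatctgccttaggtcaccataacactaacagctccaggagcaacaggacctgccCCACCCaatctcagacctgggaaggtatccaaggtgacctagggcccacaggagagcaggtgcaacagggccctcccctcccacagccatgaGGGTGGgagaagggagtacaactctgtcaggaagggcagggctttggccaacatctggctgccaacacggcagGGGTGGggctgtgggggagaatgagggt
Klk1b21 (chr7:44102042-44102341): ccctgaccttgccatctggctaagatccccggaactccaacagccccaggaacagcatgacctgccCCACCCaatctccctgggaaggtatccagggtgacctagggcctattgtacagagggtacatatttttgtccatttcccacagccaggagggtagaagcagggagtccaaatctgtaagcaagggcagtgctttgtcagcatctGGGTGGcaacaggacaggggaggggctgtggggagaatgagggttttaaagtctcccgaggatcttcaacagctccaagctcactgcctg

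Klk10 was the most abundant kallikrein of the EC-like cells, and its level was close in both ages. It stood at 327 CPM in old EC-like cells (318 to 337, 4618 UMIs) and 366 CPM in young ones (354 to 378, 3679 UMIs), a log2 ratio of -0.16 (-0.22 to -0.10). Counts of 3′ ends carry no term for transcript length, so these levels can be set beside each other across genes as numbers of tagged molecules. In the Coch/Sost/Adra2a endothelium Klk10 stood at 413 CPM in old cells (390 to 438) and 411 CPM in young cells (394 to 430), a log2 ratio of 0.01. In the Bcan/Isl1/Frzb endothelium it stood at 307 CPM in old cells (296 to 317) and 321 CPM in young cells (306 to 337), a log2 ratio of -0.07 (-0.15 to 0.02). Within each kind of endothelium the intervals of the 2 libraries overlapped. The mix of the 2 kinds differed, since the Coch/Sost/Adra2a endothelium made up 18.0% of old and 41.7% of young EC-like cells.

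Klk8 was second in abundance and showed opposite differences between ages in the 2 kinds of endothelium. Over all EC-like cells it stood at 216 CPM in old (208 to 224, 3044 UMIs) and 178 CPM in young (170 to 187, 1792 UMIs), a log2 ratio of 0.28 (0.19 to 0.36). In the Coch/Sost/Adra2a endothelium the levels were 95.6 CPM in old (84.4 to 108) and 79.4 CPM in young (71.8 to 87.7), a log2 ratio of 0.27 (0.04 to 0.50). In the Bcan/Isl1/Frzb endothelium they were 245 CPM in old (236 to 254) and 275 CPM in young (261 to 290), a log2 ratio of -0.16 (-0.26 to -0.07). The library with the larger share of Bcan/Isl1/Frzb cells, where Klk8 is high, was the old one. With the 2 kinds weighted equally, an alternative chosen after seeing the data, Klk8 stood at 170 CPM in old and 177 CPM in young and the log2 ratio turned to -0.06. On cells thinned to equal depth it was 0.14 (0.00 to 0.28) over all EC-like cells.

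Klk1 and Klk1b21 were far less abundant than Klk10 and Klk8, and both stood higher in the old library. Klk1 stood at 13.3 CPM in old EC-like cells (11.5 to 15.4) on 188 UMIs and at 2.29 CPM in young ones (1.45 to 3.43) on 23 UMIs, a log2 ratio of 2.54 (1.91 to 3.24). Klk1b21 stood at 28.0 CPM in old EC-like cells (25.3 to 30.9) on 395 UMIs and at 3.48 CPM in young ones (2.42 to 4.84) on 35 UMIs, a log2 ratio of 3.01 (2.51 to 3.55). The intervals of old and young did not overlap for either gene. Thus 2 of the 4 members were higher in old by at least 2-fold, and 0 were lower. Over 10022 genes with at least 100 UMIs in EC-like cells, 1.32% were higher by at least 2-fold and 2% were lower, with a median log2 ratio of 0.06. The members were chosen with this contrast known, so nothing is read from the comparison of the counts.

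Klk1 and Klk1b21 stood higher in old in both kinds of endothelium. In the Coch/Sost/Adra2a endothelium Klk1b21 stood at 15.6 CPM in old cells on 43 UMIs and 1.21 CPM in young cells on 6 UMIs, a log2 ratio of 3.69 (2.45 to 5.21). Klk1 had only 12 UMIs in old and 5 UMIs in young there, 4.34 and 1.01 CPM, a log2 ratio of 2.11 (0.50 to 3.97). In the Bcan/Isl1/Frzb endothelium Klk1b21 stood at 31.0 CPM in old cells on 352 UMIs and 5.71 CPM in young cells on 29 UMIs, a log2 ratio of 2.44 (1.90 to 3.04). Klk1 stood there at 15.5 CPM in old on 176 UMIs and 3.54 CPM in young on 18 UMIs, a log2 ratio of 2.13 (1.43 to 2.92). The ratio of Klk1 in each kind lay below that over all EC-like cells, whereas that of Klk1b21 lay above it in the Coch/Sost/Adra2a endothelium with a wide interval. In the Bcan/Isl1/Frzb endothelium 2 of the 4 members were higher by at least 2-fold, against 1.23% of 9348 genes, and 0 were lower, against 1.63%. In the Coch/Sost/Adra2a endothelium only Klk10 and Klk8 of the members reached 100 UMIs, and neither was past 2-fold in a direction, against 0.661% of 7411 genes higher and 1.81% lower.

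**Figure D1:**
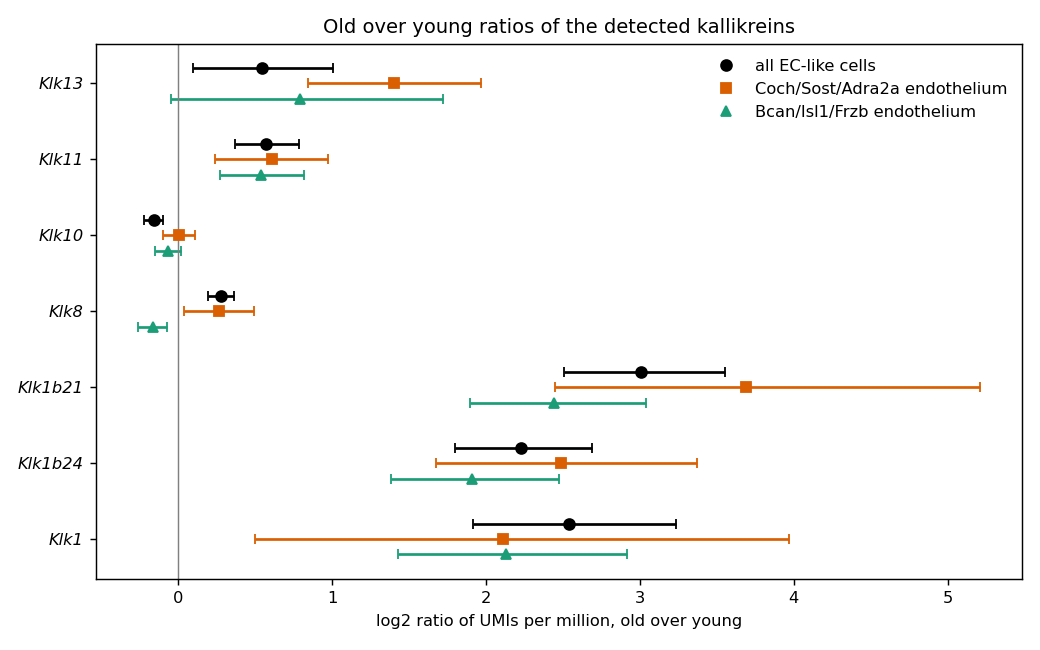
Log2 ratio of old over young (horizontal axis) for the kallikreins with ratios in all EC-like cells and in each kind of endothelium, with Klk9 left out for its few UMIs. Points are ratios of CPM and bars are exact 95% intervals for counting error. Klk1, Klk1b21 and Klk1b24 lie to the right of 0 in all 3 groupings, while Klk8 lies at 0.27 in one kind of endothelium and -0.16 in the other.

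Since reads of Klk1 copies may be shared among them, the UMIs of Klk1 and all Klk1b genes with a row (14 genes) were also summed. Together they stood at 65.1 CPM in old EC-like cells on 918 UMIs and 10.8 CPM in young ones on 109 UMIs, a log2 ratio of 2.59 (2.30 to 2.89). The ratio was 2.81 (2.20 to 3.46) in the Coch/Sost/Adra2a endothelium and 2.16 (1.83 to 2.51) in the Bcan/Isl1/Frzb endothelium. The sum does not depend on how reads were split between copies that are both in it. Any reads dropped because they fit several copies are missing from the sum too. Klk1b24, the copy nearest to Klk1b21 in sequence, held much of the rest, with 23.3 CPM in old (329 UMIs) and 4.97 CPM in young (50 UMIs), a log2 ratio of 2.23 (1.80 to 2.69). Klk1b22 had 6 UMIs in old and 0 in young EC-like cells.

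The rest of the family was detected in patches along the cluster. Of the 26 genes, 12 had no UMI in either library, 6 had 1 to 19 and 8 had at least 20, namely the 4 members, Klk1b24, Klk11, Klk13 and Klk9. Klk11 and Klk13, which lie upstream of Klk10, stood higher in old. Klk11 stood at 42.3 CPM in old and 28.4 CPM in young EC-like cells, which is a log2 ratio of 0.57 (0.37 to 0.78), and Klk13 at 9.01 CPM in old and 6.17 CPM in young, a ratio on the log2 scale of 0.55 (0.10 to 1.01). By kind of endothelium the log2 ratio of Klk13 was 1.40 (0.85 to 1.97) in the Coch/Sost/Adra2a endothelium on 69 old and 47 young UMIs, which is past 2-fold. In the Bcan/Isl1/Frzb endothelium it was 0.79 (-0.04 to 1.72) on 58 old and 15 young UMIs. The ratios of Klk11 were 0.61 and 0.54 in these kinds, close to that over all EC-like cells. Klk9, between Klk10 and Klk8 on the chromosome, had 25 UMIs in old and 16 in young EC-like cells, 1.77 and 1.59 CPM. The gene lying between the 2 most abundant kallikreins was thus the scarcest of the 8 with at least 20 UMIs. The stretch from Klk6 to Klk15 and most Klk1b genes gave no UMI in EC-like cells.

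**Figure D2:**
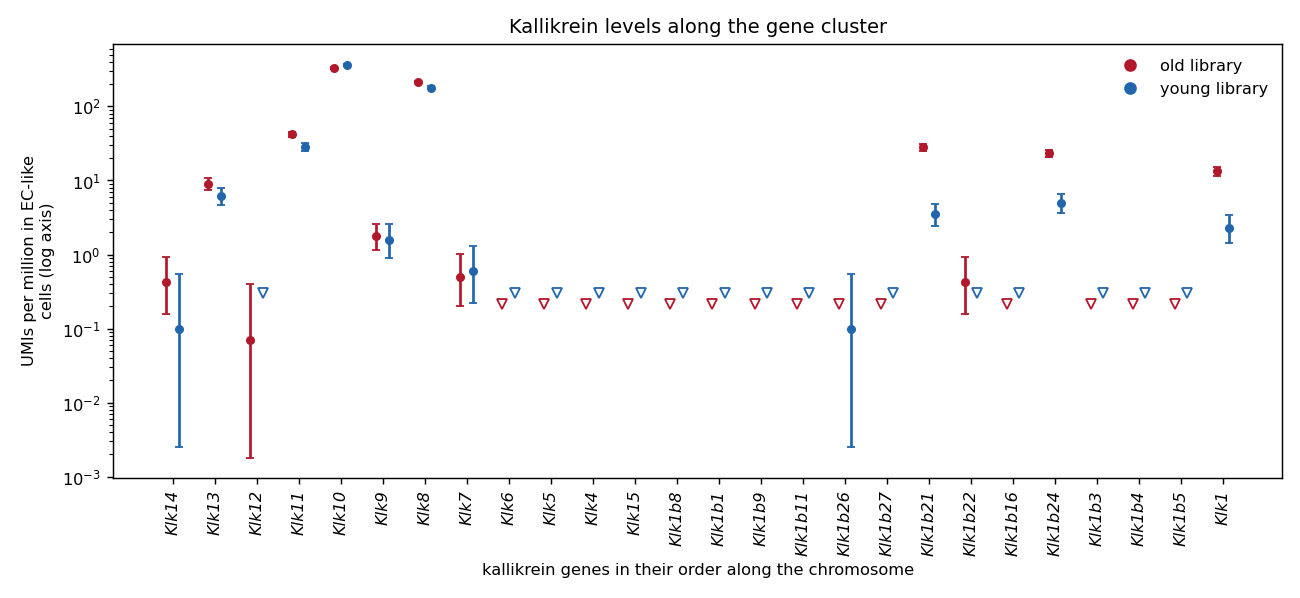
Levels of 26 kallikrein genes in EC-like cells in their order along the chromosome, old to the left of young. Filled points are CPM on a log axis with exact Poisson 95% intervals, and open triangles mark genes with no UMI, drawn at the level of 3 UMIs. Detected genes form a group around Klk10 and Klk8 at one end and the group of Klk1b21, Klk1b24 and Klk1 at the other, and old lies above young in the second group.

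The 2 kinds of endothelium differed in which kallikrein they held within each library, where age and preparation are the same. Klk10 was somewhat higher in the Coch/Sost/Adra2a endothelium, by a log2 ratio over the Bcan/Isl1/Frzb endothelium of 0.43 (0.33 to 0.53) in old and 0.36 (0.26 to 0.45) in young. Klk8 was lower there, by a log2 ratio of -1.36 (-1.55 to -1.18) in old and -1.79 (-1.96 to -1.63) in young. Klk1 had a log2 ratio of -1.84 (-2.82 to -0.996) in old and -1.82 (-3.60 to -0.33) in young, the second on 5 and 18 UMIs. For Klk1b21 it was -0.996 (-1.49 to -0.54) in old and -2.24 (-3.80 to -0.95) in young, the second on 6 and 29 UMIs. Each member kept the sign of this difference in both animals. In old its size depended on the cluster. Klk10 stood at 403 CPM (388 to 419) in Bcan/Isl1/Frzb cluster 0, against 414 CPM (391 to 439) in Coch/Sost/Adra2a cluster 2. Klk1b21 stood at 17.6 CPM (13.9 to 22.0) in Bcan/Isl1/Frzb cluster 1, against 15.7 CPM (11.3 to 21.1) in cluster 2. These intervals overlapped. When each cell was named by its own markers instead, the ratio in old was -0.75 for Klk8 and -0.13 (-0.47 to 0.20) for Klk1b21. In old, Klk8 and Klk1 were lower by at least 2-fold, 2 of 4 members against 1.79% of 9032 genes, while 0 were higher, against 0.853%, and Klk1b21 lay just short of 2-fold. In young, Klk8 was lower by at least 2-fold among the 2 members with at least 100 UMIs, against 1.44% of 8133 genes, and 0 were higher, against 1.09%.

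Summed over the clusters of each kind, Klk10 and Klk8 thus ran in opposite directions across the 2 kinds of endothelium. Other family members added further patterns. Klk13 was higher in the Coch/Sost/Adra2a endothelium, with 24.98 CPM against 5.11 CPM in old (log2 ratio 2.29, 1.76 to 2.82) and 9.45 against 2.95 CPM in young (1.68, 0.82 to 2.62). Klk11, which lies between Klk13 and Klk10, showed no difference beyond counting error, with a log2 ratio of 0.00 (-0.30 to 0.30) in old and -0.07 (-0.41 to 0.28) in young.

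**Figure D3:**
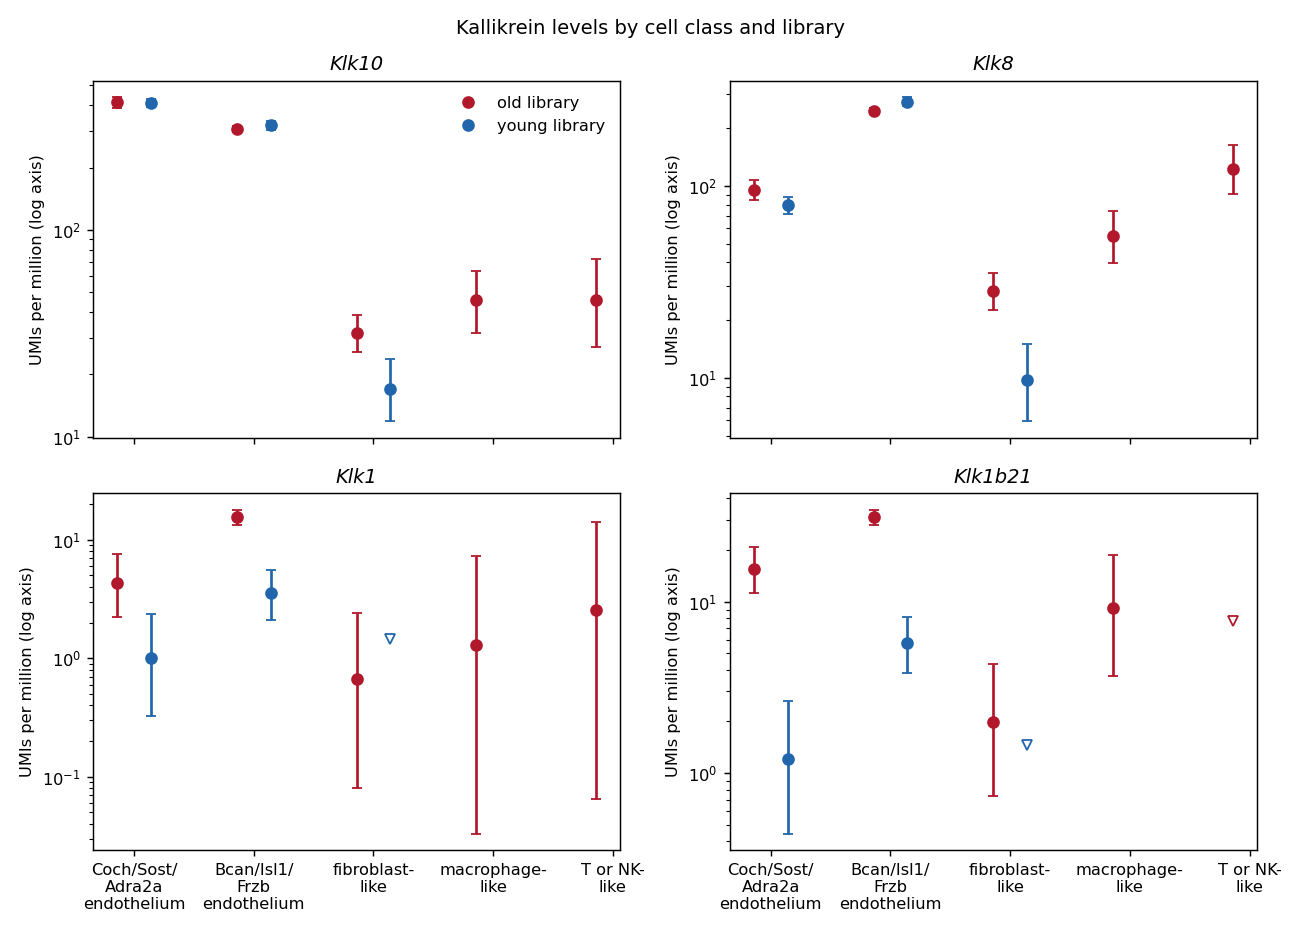
Level of each member by cell class, old to the left of young, in CPM on a log axis. Points carry exact Poisson 95% intervals, open triangles mark classes with no UMI at the level of 3 UMIs, and classes under 20 cells in a library are left out. Klk10 and Klk8 are high in both kinds of endothelium, Klk8 is also seen in old T or NK-like cells at 123 CPM, and for Klk1 and Klk1b21 the old points lie above the young ones in both kinds of endothelium.

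The Bcan/Isl1/Frzb endothelium of the old mouse fell into 2 large clusters that differed in their kallikreins. Cluster 1, in whose 10 leading genes Bcan, Isl1 and Frzb all stand, held 631 old cells, and cluster 0 held 1292. Klk10 stood at 153 CPM in cluster 1 (142 to 165) and 403 CPM in cluster 0 (388 to 419), a log2 ratio of -1.40 (-1.52 to -1.27). Although it was not used for clustering, Klk10 was among the 10 leading genes of cluster 0. Leading genes were ranked by fold over clusters of other classes only, so the list does not compare endothelial clusters with each other. Klk1 stood at 8.24 CPM in cluster 1 and 20.1 CPM in cluster 0, a log2 ratio of -1.28 (-1.86 to -0.74). Klk1b21 stood at 17.6 CPM in cluster 1 and 39.8 CPM in cluster 0, a log2 ratio of -1.18 (-1.56 to -0.81). Klk8 differed less, with 186 CPM in cluster 1 and 282 CPM in cluster 0, a log2 ratio of -0.60 (-0.72 to -0.48). Thus 3 of the 4 members were lower in cluster 1 by at least 2-fold, against 0.516% of 8525 genes, and 0 were higher, against 0.528%. The clusters were drawn from the same cells, so these values describe the clusters and are no test.

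The flow-responsive factor genes Klf2 and Klf4 and the nitric oxide synthase gene Nos3 were also lower in cluster 1. Klf2 stood at 1788 CPM in cluster 1 and 2934 CPM in cluster 0, Klf4 at 267 and 543 CPM, and Nos3 at 264 and 352 CPM. Median depth was 6125 UMIs per cell in cluster 1 and 4283 in cluster 0, so the cluster with less Klk10 was the deeper one. In young cells of the same kind (cluster 6, 601 cells) Klk10 stood at 329 CPM and Klk8 at 276 CPM, nearer to old cluster 0 than to old cluster 1. Klk1 at 3.45 CPM and Klk1b21 at 5.89 CPM lay below both old clusters there, nearer to old cluster 1. In Coch/Sost/Adra2a cluster 2 of the old library, Klf2 at 1972 CPM and Klf4 at 282 CPM were near old cluster 1. Yet Klk10 at 414 CPM and Nos3 at 366 CPM were near old cluster 0 there. Klk10 thus did not follow Klf2 and Klf4 over all old endothelial clusters, and a link between these genes was not tested.

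**Figure D4:**
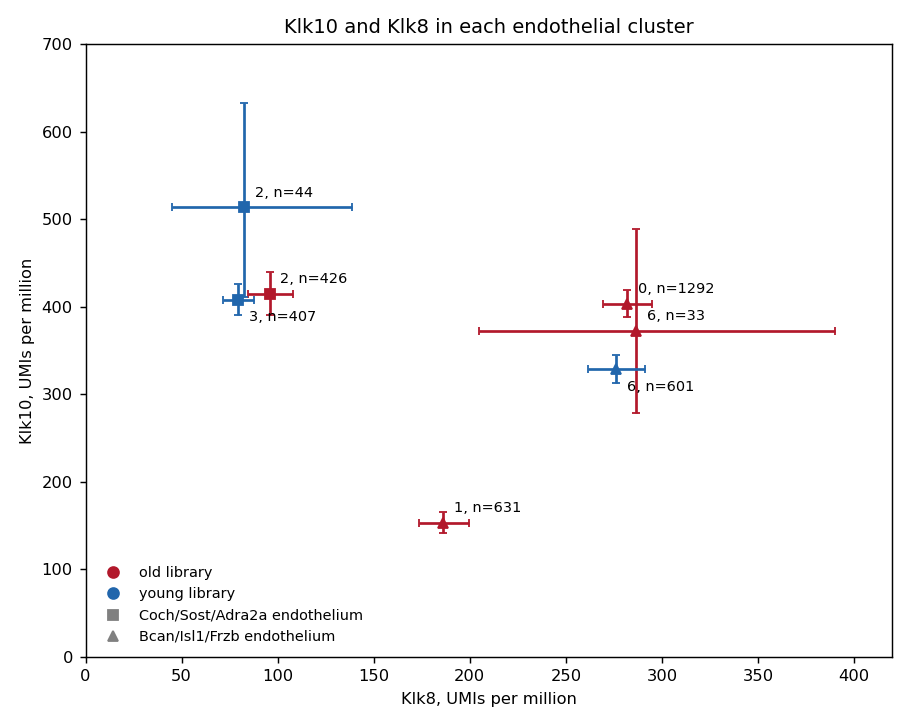
Klk8 (horizontal axis) and Klk10 (vertical axis) in CPM for each endothelial cluster and library with at least 20 cells, labelled with the cluster and its number of cells. Bars are exact Poisson 95% intervals. Clusters of the Coch/Sost/Adra2a endothelium lie at low Klk8 and high Klk10, and old cluster 1 lies apart at 153 CPM of Klk10.

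Across single cells Klk10 was unevenly spread. Each cell was thinned to 3100 UMIs to make depths equal, which left 1825 old and 980 young EC-like cells and set aside 560 and 101 shallower ones. Klk10 was then seen in 50.4% of old EC-like cells (48.0 to 52.7%) and 50% of young ones (46.8 to 53.2%), against 59.3% and 64.5% unthinned. Yet 13.8% of old and 15.8% of young thinned cells held 3 or more Klk10 UMIs, so that the gene was unseen in about as many cells as held it while a minority held several. Its variance over its mean was 2.32 in old and 2.54 in young, whereas the median of genes with a mean close to its own was 1.04 in old (214 genes) and 1.07 in young (185 genes). Only 1 of these genes in old and 4 in young had a higher value. The spread was as wide within each kind of endothelium, 2.34 in old and 2.59 in young Coch/Sost/Adra2a cells and 2.30 in old and 2.43 in young Bcan/Isl1/Frzb cells. The highest unthinned cell held 31 Klk10 UMIs in old and 51 in young.

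Klk8 was spread less unevenly than Klk10, with a variance over mean of 1.20 in old and 1.39 in young EC-like cells. It still lay above most genes of like mean, whose median was 1.03 in old and 1.04 in young, with 27 of 341 genes in old and 12 of 367 in young higher. In old Coch/Sost/Adra2a cells it was 0.94, below the median of 1.01 there. It was seen in 46.1% of old (43.8 to 48.5%) and 40.2% of young thinned EC-like cells (37.1 to 43.4%), against 61.6% and 62.2% unthinned. By kind of endothelium the thinned shares were 26.1% in old and 20.8% in young Coch/Sost/Adra2a cells, and 50.9% in old and 54.9% in young Bcan/Isl1/Frzb cells. The shares repeat the order of the CPM values.

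Klk1 and Klk1b21 were seen in few cells, mostly with a single UMI each. Klk1 was seen in 4.22% of old (3.34 to 5.25%) and 0.714% of young thinned EC-like cells (0.288 to 1.47%); before thinning these were 6.37% and 1.67%. Klk1b21 was seen in 8.16% of old (6.95 to 9.52%) and 1.43% of young thinned EC-like cells (0.783 to 2.39%); before thinning these were 13.7% and 2.78%. No cell dominated, since the highest old cell held 8 Klk1 UMIs and 4 Klk1b21 UMIs, 4.26% and 1.01% of the gene's total. The share of cells without a UMI was close to that of a Poisson count of the same mean, 95.8% against 95.7% for Klk1 in old and 91.8% against 91.7% for Klk1b21 in old.

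**Figure D5:**
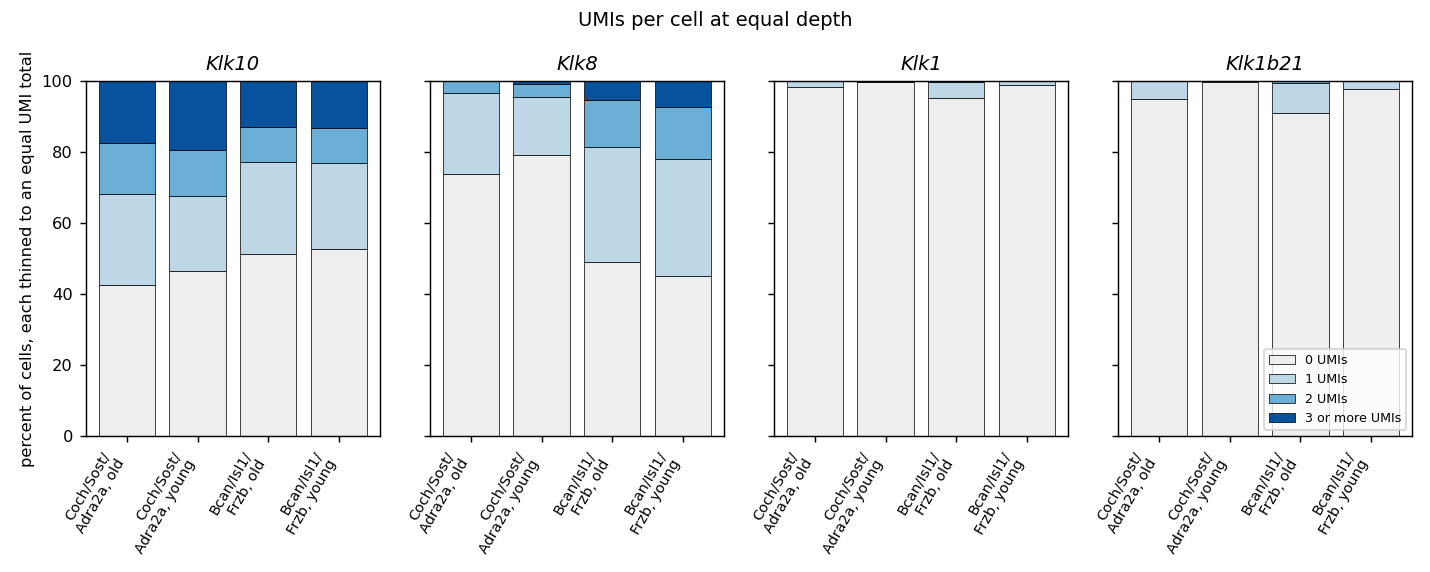
Percent of cells (vertical axis) with 0, 1, 2 and 3 or more UMIs of each member after thinning each cell to 3100 UMIs, for each kind of endothelium, old to the left of young. Klk10 is unseen in about as many cells as show it while 12.9 to 19.4% hold 3 or more UMIs, and Klk1 and Klk1b21 are seen mostly as a single UMI.

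Klk8 was seen in a larger share of cells with Klk10 than of cells without it. In old Bcan/Isl1/Frzb cells at equal depth, Klk8 was seen in 405 of 717 cells with Klk10 (56.5%) and 345 of 756 cells without it (45.6%). In young cells of the same kind it was seen in 165 of 264 cells with Klk10 (62.5%) and 141 of 293 without it (48.1%). Old and young thus showed the same direction. In old Coch/Sost/Adra2a cells the shares with Klk8 were 29.7% of 202 cells with Klk10 and 21.3% of 150 without it. Klk1 was seen in 6.28% of old Bcan/Isl1/Frzb cells with Klk10 and 3.44% of those without it. Klk1b21 was seen in 6.93% of old Coch/Sost/Adra2a cells with Klk10, 14 cells, and 2.67% of those without it, 4 cells. In old Bcan/Isl1/Frzb cells the shares for Klk1b21 were 8.65% with Klk10 and 9.13% without it. Klk1b21 was seen in 7 of 71 old Bcan/Isl1/Frzb cells with Klk1 (9.86%) and 124 of 1402 without it (8.84%), close shares. The old Bcan/Isl1/Frzb cells pool clusters 0 and 1, which differ at equal depth. Klk10 was seen in 60.8% of cluster 0 and 28.8% of cluster 1, and Klk8 in 55.7% and 42.7%. The part of this mix in the shares was not tested. Cells of 1 animal are not replicates, and these shares describe the 2 libraries.

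Most UMIs of the members came from EC-like cells, but Klk10 and Klk8 were also seen in other classes. EC-like cells held 94.6% of Klk10 UMIs in old and 98.6% in young, 92.2% and 98.5% of Klk8 UMIs, 96.9% and 100% of Klk1 UMIs, and 95.6% and 97.2% of Klk1b21 UMIs. In fibroblast-like cells, the largest of the other classes, Klk10 stood at 31.6 CPM in old and 17.0 CPM in young, and Klk8 at 28.3 and 9.72 CPM. These were 9.65% and 13.1% of the old EC-like level, and 10 endothelial markers stood at a median of 10.5% of theirs in the same cells (range 0 to 24.5%). At equal depth Klk10 was seen in 8.32% of old and 4.50% of young fibroblast-like cells, and Klk8 in 6.40% and 3.60%. The median depth of fibroblast-like cells was 4830 UMIs in old and 8440 in young, close to that of EC-like cells at 4995 and 7396. These shares are given as the level against which others can be read, and where the UMIs came from was not tested. Of the 2 members with at least 100 UMIs there, Klk8 was higher in old by at least 2-fold, against 1.59% of 5606 genes higher and 2.66% lower. The 10 endothelial markers were also higher in old fibroblast-like cells, with a summed level of 949 CPM against 446 CPM in young. In young their median was 3.77% of the EC-like level. The rise of Klk8 is therefore not particular to it.

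Klk1 and Klk1b21 had 2 and 6 UMIs in old fibroblast-like cells, and 0 of either in 239 young ones, so that the level of 3 UMIs, used as the limit for a count of 0, is 1.46 CPM. At equal depth they were seen in 0.213% and 1.28% of old fibroblast-like cells. The levels of both genes were 13.3 and 28.0 CPM in old EC-like cells and 0.666 and 1.997 CPM in old fibroblast-like cells. In old monocyte or macrophage-like cells Klk1b21 stood at 9.14 CPM on 7 UMIs, 32.6% of its EC-like level, and Klk1 at 1.31 CPM on 1 UMI. In the 37 old erythroid-like cells Klk1b21 stood at 18.2 CPM (3.75 to 53.1) on 3 UMIs, 64.8% of its EC-like level, and Klk1 at 6.05 CPM (0.153 to 33.7) on 1 UMI, 45.4% of its level. Those erythroid-like intervals contain the EC-like levels of both genes, so no difference was detectable at this depth. Markers of erythroid cells and macrophages also stood higher in old than in young EC-like cells, as given above. They stood higher still in old fibroblast-like cells, at 1348 CPM for the erythroid and 134 CPM for the macrophage markers. The part of such RNA in the values of Klk1 and Klk1b21 was not tested.

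Of the old classes not named EC-like, the unnamed cluster and the T or NK-like cells held the highest levels of Klk8. The unnamed cluster, led by Ccl21a, Ppbp and Mmrn1, held 47 old cells with Klk10 at 260 CPM (214 to 313) and Klk8 at 156 CPM (121 to 198), 79.4% and 72.2% of the EC-like levels. Its 10 endothelial markers stood at a median of 81.9% of theirs, so it held endothelial RNA at close to the EC-like level. Klk1 and Klk1b21 rested on 1 and 2 UMIs there. In T or NK-like cells Klk8 stood at 123 CPM (90.4 to 163) on 48 UMIs in 34 of 123 cells, 56.8% of the old EC-like level. In the same cells Klk10 stood at 14.0% of its EC-like level, and the 10 endothelial markers ranged from 0 to 20.3% with a median of 16.0%. Klk8 thus lay above all of the endothelial markers there. Of the 34 cells with a Klk8 UMI, 76.5% held a T or NK marker, against 75.3% of the 89 without one, and both groups held a median of 2 UMIs of endothelial markers. Median depth was 3109 UMIs in cells with a Klk8 UMI and 2201 in those without, so the groups are not compared at equal depth. The cluster also carries B cell markers, seen in 23.5% and 44.9% of these cells. In old erythroid-like cells Klk8 stood at 84.8 CPM (46.3 to 142) on 14 UMIs, 39.3% of its EC-like level. The endothelial markers had a median of 20.1% there and ranged from 0 to 144.7%, so Klk8 lay within their range. In old monocyte or macrophage-like cells Klk8 stood at 54.8 CPM (39.5 to 74.1), 25.4% of its EC-like level. It lay within the range of the markers there too, 0 to 73.7% with a median of 19.1%. The young library held 10 T or NK-like cells with 4 Klk8 UMIs, too few for a comparison.

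The genes whose levels followed each member most closely were sought over 10 profiles (classes and kinds of endothelium by library with at least 20 cells) among 10820 genes, by Pearson correlation of log2(CPM + 1). The profiles of a library share preparation and depth, so the coefficients are a description. Klk10 was followed by Nos3 (0.992), Sdpr, Sox7, Bcam and Cmip, all at 0.990 or above. Nos3 stood at 364 CPM in old and 342 CPM in young Coch/Sost/Adra2a cells and 317 and 315 CPM in Bcan/Isl1/Frzb cells. This was the same order as for Klk10 with a smaller difference. In fibroblast-like cells Nos3 stood at 33.3 CPM in old and 19.9 CPM in young, so the coefficient also holds the gap between endothelium and other classes. Klk8 was followed by Gimap4 (0.951), Ankrd33b, Gbp4, Rgp1 and H2-Q7. Gimap4, a GTPase gene of lymphocytes, stood at 202 CPM in old T or NK-like cells. In Bcan/Isl1/Frzb cells it stood at 183 CPM in old and 157 CPM in young, and in Coch/Sost/Adra2a cells at 108 and 99.2 CPM. Its order across the kinds of endothelium was thus that of Klk8. Klk1 was followed by Dlgap1 (0.877), Mal, Arhgap8, Socs2 and Serpina1b. Mal, a membrane raft protein gene, stood at 140 CPM in old and 71.4 CPM in young Bcan/Isl1/Frzb cells. Klk1b21 was followed by Gm20045 (0.883), Fam98c, Rnf112, Tac2 and Tppp. The coefficients of Klk1 and Klk1b21 lean on single UMIs, since outside the endothelium each profile held 0 to 2 UMIs of Klk1 and 0 to 7 of Klk1b21. Klk1 and Klk1b21 had a coefficient of 0.793 with each other, and Klk10 one of 0.711 with Klk8.

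The other genes of the kallikrein and kinin system were mostly unseen or little different in EC-like cells. Of both kinin receptor genes, Bdkrb1 had 0 UMIs in old and 1 in young, and Bdkrb2 had 0 in either, where the level of 3 UMIs is 0.213 CPM in old and 0.298 CPM in young. The kininogen genes Kng1 and Kng2, whose products are the substrate of Klk1, had 0 UMIs, and the plasma kallikrein gene Klkb1 had 6 UMIs in old and 3 in young. Of 5 genes of kinin precursors only Prcp, which encodes an enzyme that activates plasma prekallikrein, reached 100 UMIs, with 101 CPM in old and 74.0 CPM in young (log2 ratio 0.45, 0.32 to 0.58). Of 12 genes of kinin degradation 7 did, with 0 past 2-fold in either direction, against 1.32% of all genes tested higher and 2% lower. Their median log2 ratio was -0.05, against 0.06 over all genes. Among these, the angiotensin and kinin converting enzyme gene Ace stood at 664 CPM in old and 838 CPM in young (-0.34), Ece1 at 520 and 636 CPM (-0.29), Cpm at 8.30 and 4.97 CPM (0.74) and Prep at 8.23 and 6.66 CPM (0.30, -0.14 to 0.76). In the Bcan/Isl1/Frzb endothelium Cpm, a carboxypeptidase gene, was past 2-fold higher, as were 1.23% of genes there, with a log2 ratio of 1.27 (0.49 to 2.14) on 86 old and 16 young UMIs.

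Both measured genes of protease-activated receptors, some of which kallikreins can cut, were lower in old. F2r, the thrombin receptor, stood at 81.5 CPM in old and 141 CPM in young EC-like cells, which is a log2 ratio of -0.79 (-0.91 to -0.68). F2rl1, the receptor for trypsin-like proteases, stood at 20.4 CPM in old and 41.8 CPM in young, a ratio on the log2 scale of -1.03 (-1.25 to -0.81). Of the 4 listed receptor genes these 2 reached 100 UMIs, and over all EC-like cells F2rl1 was past 2-fold lower, as were 2% of all genes tested. Within either kind of endothelium F2rl1 was not past 2-fold, with log2 ratios of -0.55 (-0.88 to -0.22) in the Coch/Sost/Adra2a and -0.72 (-1.05 to -0.38) in the Bcan/Isl1/Frzb endothelium. Its level was higher in the Coch/Sost/Adra2a endothelium of both libraries, the kind with the smaller share in old. F2r kept its size in both kinds, at -0.71 and -0.86. Of 5 inhibitor genes only Serping1, the C1 and plasma kallikrein inhibitor, reached 100 UMIs, with 73.0 CPM in old and 48.4 CPM in young (0.59, 0.43 to 0.75).

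Of 7 vasodilator and flow genes 6 reached 100 UMIs, with 1 past 2-fold higher and 0 past 2-fold lower, against 1.32% and 2% of all genes tested. Their median log2 ratio was -0.15, against 0.06 over all genes. Nos3 stood at 327 CPM in old and 328 CPM in young (-0.01, -0.07 to 0.06), Klf2 at 2388 and 2667 CPM (-0.16), Klf4 at 405 and 536 CPM (-0.40) and the prostacyclin synthase gene Ptgis at 423 and 521 CPM (-0.30). The higher one was Gucy1a3, a subunit of the nitric oxide receptor, with 11.8 CPM in old and 1.69 CPM in young (2.80, 2.08 to 3.61). Over all EC-like cells it was the one gene of these lists with at least 100 UMIs that was past 2-fold higher. Its log2 ratio was 2.69 (1.81 to 3.72) in the Bcan/Isl1/Frzb endothelium, while the Coch/Sost/Adra2a endothelium held only 8 old and 6 young UMIs.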

How the data were processed

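The authors deposited raw UMI counts of genes in barcodes, made with Cell Ranger on GRCm38, per the submitters' processing notes. For its version and annotation, the sources used here give nothing. Kept were barcodes of 200 genes or more with no more than 10% of UMIs mitochondrial. Scrublet marked 6 old (0.180%) and 6 young (0.440%) barcodes, which were removed; at so few calls it has not worked as a doublet filter, so doublets may remain.

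Both libraries were clustered together in scanpy 1.11.5 (Python 3.11.15; 10000 UMIs per cell, log scale, 2000 variable genes without kallikreins, 30 components, 15 neighbours, Leiden resolution 0.5). Clusters were named from fixed markers seen in at least 25% of their cells, at least 3 for a class. A cluster was left unnamed where its 10 leading genes held more markers of another class. This left the cluster led by Ccl21a unnamed, although endothelial markers had its highest mean share of cells (72.26%). UMIs were summed per class and library and scaled to the class total. Log2 ratios carry exact conditional binomial intervals, levels exact Poisson intervals and shares exact Clopper-Pearson intervals, all at 95% and for counting error only. The code was tested on simulated counts. UMIs reached 100 over both groups for a gene to count past 2-fold. TMM scaling used edgeR 4.0.16. Kallikrein sequences were aligned with biopython 1.88.

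Named are the 4 members, every other kallikrein with at least 20 UMIs, the kinin receptors, the 2 highest and 2 lowest ratios of each list, Klf2, Klf4, Nos3, and the 5 genes closest to each member. Kng1, Kng2, Klkb1 and Klk1b22 were named after their values were seen. Members and lists were chosen with earlier results of these data known.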

Additional observations from a re-analysis of the deposited data

Results flagged for a closer look

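The ratio of old over young for Klk8 pointed in opposite directions in the 2 kinds of endothelium, 0.27 in the Coch/Sost/Adra2a endothelium and -0.16 in the Bcan/Isl1/Frzb endothelium on the log2 scale, with both intervals clear of 0. With 1 library per age the difference between these ratios was not tested. Different clusters held most cells of each kind in the 2 libraries.

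Klk8 was also seen outside the endothelium. In T or NK-like cells of the old library its level was 56.8% of that in EC-like cells, above each of the 10 endothelial markers, whose highest stood at 20.3%. The part of doublets and free RNA in this was not tested.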

How the results depend on the processing

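Of the values recomputed under other settings, 219 stayed within their counting interval, 32 moved and 1 reversed. The log2 ratio of old over young in EC-like cells stayed between 2.13 and 2.60 for Klk1 and between 2.61 and 3.02 for Klk1b21 under all 12 alternatives. That of Klk8 reversed to -0.056 and that of Klk10 became -0.025 with the kinds of endothelium at equal weight; with the fibroblast-like level taken off they became 0.15 and -0.24 (both settings chosen after seeing the data, as was leaving out shared barcodes, which moved nothing). Thinned cells gave 0.14 for Klk8 and median-of-ratios scaling gave -0.22 for Klk10. For Klk10, old over young in the Coch/Sost/Adra2a endothelium became 0.12 at resolution 1.0 and 0.13 with kallikreins allowed in clustering. Its ratio of Coch/Sost/Adra2a over Bcan/Isl1/Frzb endothelium in old became 0.57 and 0.61 under these, and 0.63 when each cell was named by its own markers. That naming gave -0.75 for Klk8 and -0.13 for Klk1b21 in old and -1.27 for Klk8 in young. Shares of cells moved with depth by construction. Without thinning they were 59.3% for Klk10, 61.6% for Klk8, 6.37% for Klk1 and 13.7% for Klk1b21 in old, and 64.5%, 62.2%, 1.67% and 2.78% in young. At 2000 UMIs they were 38.2%, 34.3%, 2.29% and 5.69% in old, and 39.2% for Klk10 and 29.0% for Klk8 in young. A stricter cell filter gave 36.9% for Klk8 in young. Genes past 2-fold in EC-like cells numbered 446 higher and 399 lower with at least 20 UMIs, and 944 and 900 with at least 1 UMI in each group, against 132 and 200. The causes were not tested. No paired analysis was possible because each age has 1 library, and no replicate could be left out. Depth limits Klk1 and Klk1b21 in young, which rest on 23 and 35 UMIs.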
